A study of Arabidopsis thaliana with 12 samples.

Results

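The berberine bridge enzyme-like genes of Arabidopsis thaliana were followed in 12 arrays of whole germinants, and 10 genes of the family are described here. These are the 5 genes of a tandem cluster, AT1G26380, AT1G26390, AT1G26400, AT1G26410 and AT1G26420, and 5 further loci, AT1G30700, AT2G34810, AT4G20830, AT4G20860 and AT5G44380. Each has a probe set that the annotation pairs with that locus alone. The family list used here holds 27 loci. Of these, 22 have such a probe set, so that 12 other family genes could be set beside the 10; 3 loci are read only by a probe set shared by a pair of genes, and 2 have no named probe set. Over the whole series 13333 genes have a probe set of their own. The 10 genes were chosen by family membership with their measured log2 differences in both particle comparisons in view. Those differences are therefore given as a description, without p-values. Calls of single genes among the 10, and how many alternative fits keep them, are likewise descriptions and no evidence for the genes.

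All germinants were of the Columbia (Col-0) ecotype and 12 days old, grown on wetted glass fibre filters with 50 seeds and 2 mL of liquid per dish. One group was grown with titania (TiO2) nanoparticles at 500 mg per L and its control on 0.1 mM KCl. Another was grown with ceria (CeO2) nanoparticles at 500 mg per L and its control on sterile purified water. Each group had 3 arrays. The labels name those of TiO2 and KCl biological replicates, and those of CeO2 and water just replicates, so the spread between arrays may be partly technical. The labels do not state in which liquid the particles were suspended. Each sample is a whole seedling extract, so fewer cells of a type and less RNA per cell cannot be told apart.

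Berberine bridge enzyme-like proteins are secreted oxidases that carry a covalently bound flavin cofactor and pass electrons from their substrate to oxygen, which yields hydrogen peroxide, or to another acceptor. In Arabidopsis the known substrates differ between members and include cell wall sugar fragments, monolignols and an indole intermediate of defence chemistry. Several members are known to be transcribed in response to microbial molecules and wall fragments.

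Expression was deposited as log2 values from RMA (robust multi-array average), in which background is corrected, array distributions are equalized and the probes of a set are summarized. Array minima were 2.30 to 2.51 log2, and low signals are compressed on this scale, so a difference to or from a level near 3 may understate the change in transcript. Values of different probe sets are not compared as levels, and only the differences of genes are set side by side. Array medians were 5.69 to 5.74 log2 for TiO2 and KCl and 5.88 to 5.92 for CeO2 and water. The mean sorted values of these sets of arrays differed by up to 0.435 log2, and by at most 0.0930 within a set. Levels of the TiO2 and KCl arrays against those of the CeO2 and water arrays may therefore carry the authors' normalization as well as the liquids. Root markers were present, with the root beta-glucosidase gene PYK10 (AT3G09260) at 13.12 ± 0.04 log2 in CeO2 and 13.11 ± 0.11 in water (SD, n = 3). None of the 8 leaf markers listed had a named probe set.

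Germinants grown on ceria were compared with those on water to find which genes differed. All 10 genes had a lower mean in CeO2, by 0.05 to 4.21 log2, with a median difference of −0.89 against −0.01 over all 22746 probe sets. In the limma fit 6 of the 10 were past the threshold (adjusted p of 0.05 over all probe sets), all 6 lower, against 1.16% of all probe sets called lower and 2.42% called in either direction. Since the genes were chosen with these values known, nothing is read from that count. In 9 of the 10 every CeO2 array lay below every water array, against 8.54% of all probe sets, or 16.8% apart in either direction. The exception was AT2G34810.

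**Figure D1:**
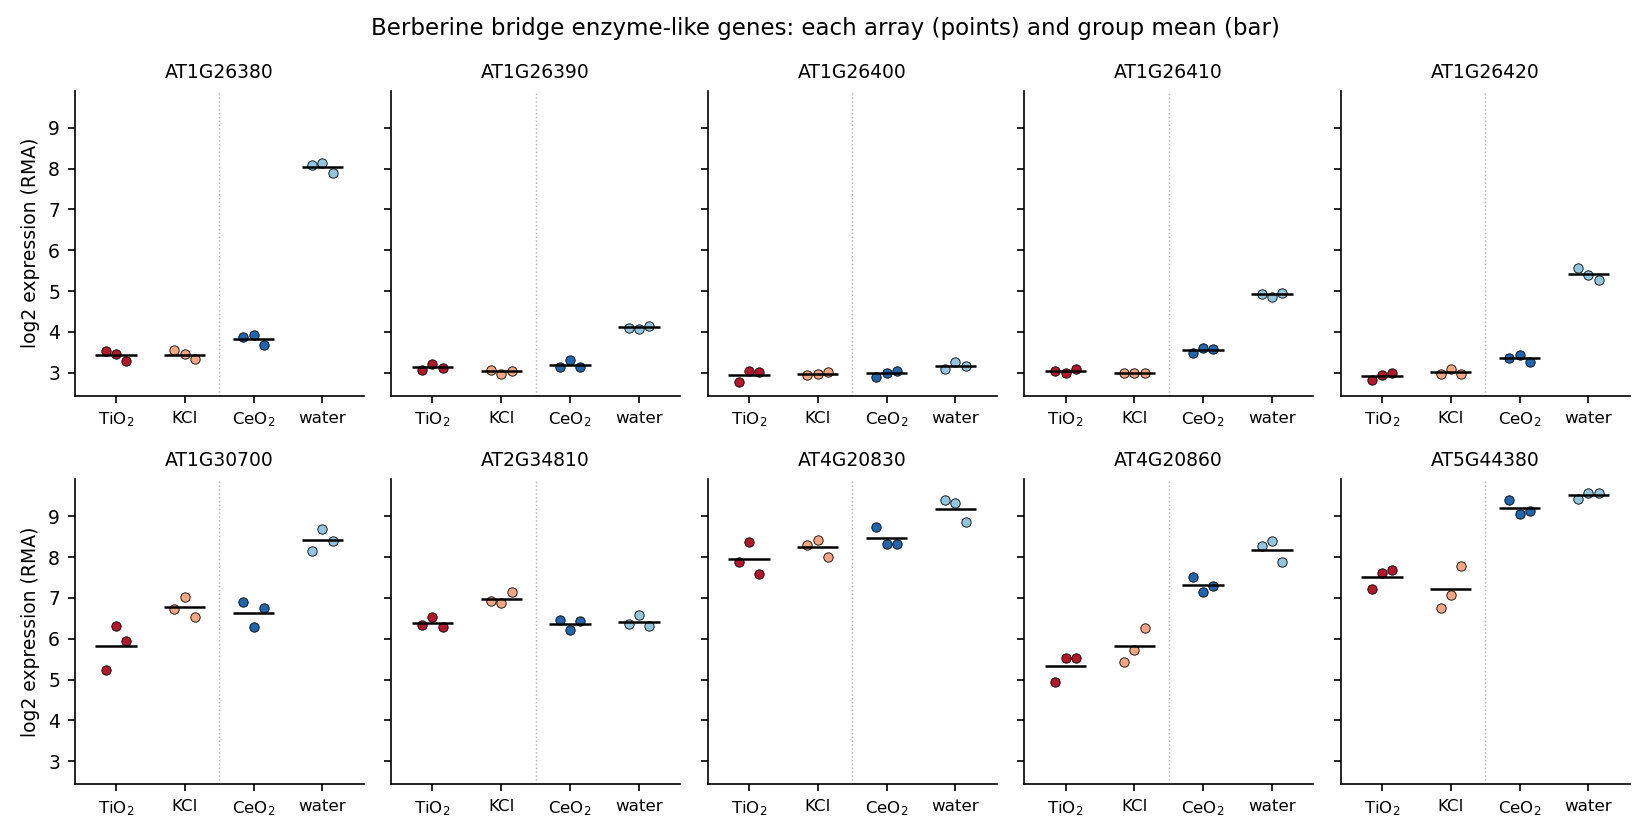
Log2 expression (RMA) of each of the 10 genes, with 1 point per array and a bar at the mean of the 3 arrays of a group; the dotted line parts the TiO2 and KCl arrays from the CeO2 and water arrays. AT1G26380 stands at 3.69 to 3.93 in CeO2 against 7.91 to 8.14 in water, while all 5 cluster genes stay below 3.6 in TiO2 and KCl.

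AT1G26380, known as FOX1, oxidizes an indole cyanohydrin to indole carbonyl nitrile on the way to tryptophan-derived defence compounds. It read 3.86, 3.93 and 3.69 log2 in the 3 CeO2 arrays, against 8.09, 8.14 and 7.91 in the 3 water arrays. The groups lay far apart, and the arrays within each group close together. The difference was −4.21 ± 0.10 log2 (SE of the limma fit), an 18.6-fold lower signal in CeO2 and the most negative of all 22746 probe sets. On its own arrays the gene stood on average at percentile 24.0 of all probe sets in CeO2 and at percentile 79.6 in water.

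AT1G26420 is a further member of the tandem cluster. It read 3.36, 3.42 and 3.27 log2 in CeO2, against 5.55, 5.40 and 5.26 in water. Its difference was −2.05 ± 0.09 log2, or 4.16-fold, with no overlap of the groups. AT1G26410 read 3.48, 3.61 and 3.59 in CeO2, against 4.93, 4.86 and 4.96 in water, a difference of −1.36 ± 0.08 or 2.56-fold. The gap between the groups was again wide beside the spread inside them. AT1G26390 read 3.14, 3.31 and 3.14 in CeO2, against 4.11, 4.08 and 4.15 in water, a difference of −0.92 ± 0.08 or 1.89-fold. Its CeO2 and water arrays did not overlap either.

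AT1G26400, the middle gene of the cluster, was low in every array. It read 2.90, 3.00 and 3.05 log2 in CeO2, against 3.10, 3.27 and 3.16 in water. The groups did not overlap, but the lowest water array lay only just above the highest CeO2 array. The difference of −0.19 ± 0.09 log2 was not past the threshold, and the gene stood on average at percentile 8.75 of its water arrays.

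The cluster genes thus differed among themselves in CeO2 by 4.02 log2 between the most and least negative difference. The difference of AT1G26380 minus that of AT1G26420 was −2.16 ± 0.06 log2 (SE over arrays of the within-array gap between both genes). It was −2.86 ± 0.13 against AT1G26410, −3.30 ± 0.11 against AT1G26390 and −4.02 ± 0.13 against AT1G26400. AT1G26380 thus had a more negative difference than each of the other 4. The difference of AT1G26410 minus that of AT1G26420 was 0.70 ± 0.11. The smallest gap was 0.44 ± 0.05, between AT1G26390 and AT1G26410. Within-array gaps in CeO2 and water did not overlap in any of the 10 pairs, a description of genes chosen with these values known. The gap of AT1G26380 over AT1G26420, for instance, was 0.42 to 0.51 log2 in the CeO2 arrays and 2.53 to 2.73 in the water arrays. In TiO2 and KCl the gaps of AT1G26390 and of AT1G26410 over AT1G26420 were apart too, and those of the other pairs overlapped. The share of other gene pairs apart in this way was not computed. In CeO2 the 4 genes other than AT1G26380 read 2.90 to 3.61 log2 and AT1G26380 read 3.69 to 3.93, near the bottom of the scale. This limits how large a difference their probe sets could show, given the water level of each. From the most to the least negative difference, the water means were 8.04, 5.41, 4.92, 4.11 and 3.17 log2. How far the spread of the differences restates these water levels was not tested.

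**Figure D2:**
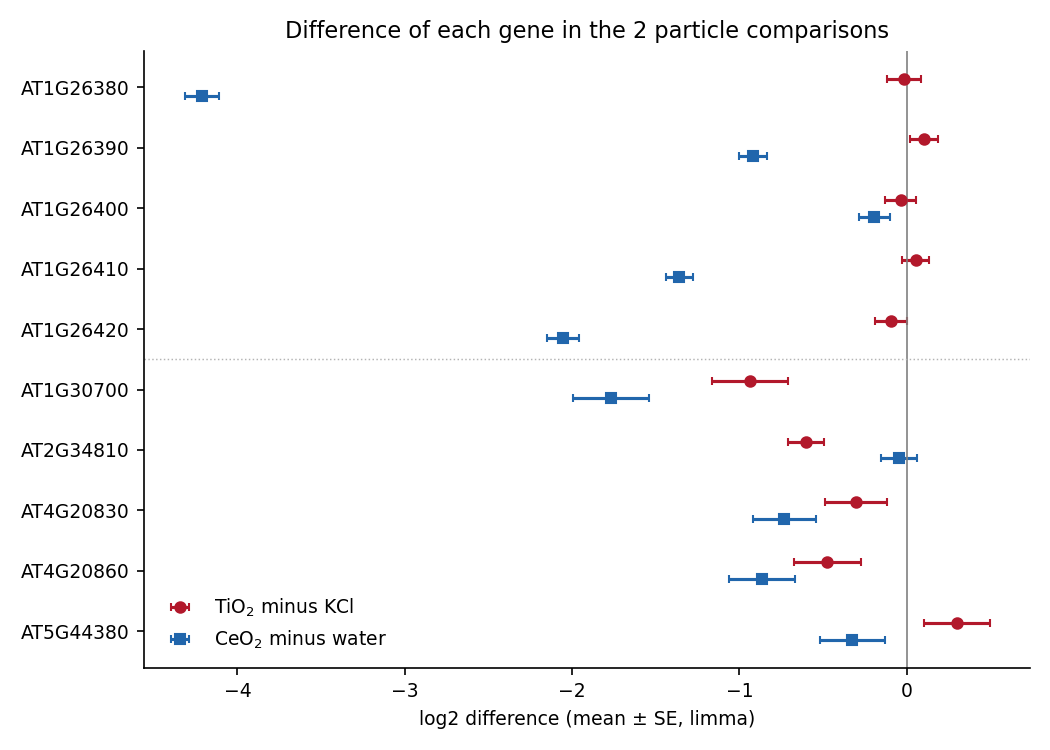
Log2 difference of each gene, with the SE of the limma fit as error bars; circles are TiO2 minus KCl, squares CeO2 minus water, and the dotted line parts the tandem cluster from the 5 further genes. The cluster runs from −4.21 to −0.19 in CeO2 and from −0.09 to 0.11 in TiO2.

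Among the 5 further genes AT1G30700 had the largest difference in CeO2. It read 6.90, 6.28 and 6.75 log2 in CeO2, against 8.15, 8.68 and 8.40 in water. Every CeO2 array lay more than 1 log2 below the lowest water array. The difference was −1.77 ± 0.23 log2, or 3.41-fold.

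AT4G20860, known as CELLOX1, oxidizes the cellulose fragments called cellodextrins. It read 7.50, 7.16 and 7.29 log2 in CeO2, against 8.27, 8.39 and 7.88 in water. The groups did not overlap, and the difference was −0.87 ± 0.20 log2 or 1.82-fold. This gene was past the threshold in the 12-array fit and not past it without water replicate 1 or 2 or CeO2 replicate 2 or 3, with differences of −1.02 to −0.76 over all alternatives.

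AT4G20830, known as OGOX1, oxidizes oligogalacturonides, the pectin fragments that act as wall damage signals. It read 8.75, 8.32 and 8.32 log2 in CeO2, against 9.39, 9.32 and 8.86 in water. The highest CeO2 array lay just below the lowest water array. Its difference of −0.73 ± 0.19 log2, or 1.66-fold, was not past the threshold in the 12-array fit and was past it in 11 of 18 alternatives. A second probe set, shared by AT4G20830 and AT4G20840 (OGOX2, of like activity), stood at 0.10 ± 0.13 in CeO2. How much of its signal comes from AT4G20830 is not known, so it is not a second reading of that gene alone.

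AT5G44380 read 9.41, 9.05 and 9.12 log2 in CeO2, against 9.42, 9.58 and 9.57 in water. CeO2 replicate 1 lay only just below the lowest water array. The difference of −0.33 ± 0.19 was not past the threshold. AT2G34810 read 6.47, 6.22 and 6.42 in CeO2, against 6.35, 6.59 and 6.32 in water, with overlapping groups and a difference of −0.05 ± 0.11.

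Some markers of the root also differed between CeO2 and water. Of 9 root markers 6 had a probe set of their own, and 3 of the 6 rose in CeO2, against 1.26% of all probe sets called higher. The other 3 were not past the threshold, with PYK10 (AT3G09260) at 0.01 log2, AT2G47540 at −0.02 and AT4G11290 at 0.13. The root hair expansin genes EXPA18 (AT1G62980) and EXPA7 (AT1G12560) rose by 1.44 ± 0.12 and 0.96 ± 0.13 log2 (limma adjusted p = 2.13e-06 and 0.000352) and the root hair peroxidase gene AT4G26010 by 1.26 ± 0.12 (adjusted p = 6.50e-06). The summed level of the 6 (log2 of the summed linear values) was 13.6 to 13.8 log2 in CeO2 and 13.3 to 13.5 in water, and each of the 6 read at least 6.83 log2 on every array. Of 8 seed markers 2 were measured and neither was past the threshold in CeO2, with a summed level of 8.90 to 9.23 log2 in CeO2 and 9.17 to 9.55 in water. The part of root and seed tissue in the differences of the oxidase genes was not tested.

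The comparison of TiO2 with KCl asks the same of titania. Here 2 of the 10 genes were past the threshold, AT1G30700 and AT2G34810, both lower, against 5.86% of all probe sets called lower, 4.72% higher and 10.6% in either direction, and nothing is read from that count either. The median difference of the 10 was −0.07 log2, against 0.02 over all probe sets. None of the 5 cluster genes was past the threshold. In 2 of the 10 every TiO2 array lay below every KCl array, against 11.3% of all probe sets. With AT1G26390, narrowly apart and higher in TiO2, 3 of the 10 were apart either way, against 24.4%.

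The 5 cluster genes sat at the bottom of the scale in both groups. AT1G26380 read 3.53, 3.46 and 3.29 log2 in TiO2, against 3.55, 3.45 and 3.33 in KCl, a difference of −0.01 ± 0.10. The arrays of both groups fell on the same range, at average percentiles of 13.4 in TiO2 and 14.3 in KCl. The other 4 cluster genes lay between 2.77 and 3.21 log2 in TiO2 and between 2.95 and 3.10 in KCl. Their differences were 0.11 ± 0.08 for AT1G26390, −0.04 ± 0.09 for AT1G26400, 0.05 ± 0.08 for AT1G26410 and −0.09 ± 0.09 for AT1G26420. The cluster spanned 0.20 log2 in this comparison, and 0.13 without KCl replicate 2. A lower transcript level in TiO2 was hardly detectable from such KCl levels.

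AT1G30700 read 5.23, 6.32 and 5.94 log2 in TiO2, against 6.74, 7.03 and 6.54 in KCl. TiO2 replicate 1 was low, but every TiO2 array lay below every KCl array. The difference was −0.94 ± 0.23 log2 or 1.92-fold. It was not past the threshold without TiO2 replicate 1, without KCl replicate 2 or in a fit of the 6 compared arrays alone, with values of −1.18 to −0.64 over the alternatives. This was the only one of the 10 genes past the threshold in both particle comparisons.

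AT2G34810 read 6.35, 6.52 and 6.29 log2 in TiO2, against 6.94, 6.88 and 7.14 in KCl. The groups were clearly apart. Its difference was −0.60 ± 0.11 log2 or 1.51-fold, with values of −0.67 to −0.52 over the 18 alternatives. It was past the threshold in all 18, which is a description, since the gene was chosen with this value known.

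The wall fragment oxidase genes were not past the threshold in TiO2 in the 12-array fit. CELLOX1 (AT4G20860) read 4.94, 5.54 and 5.54 log2 in TiO2, against 5.44, 5.73 and 6.27 in KCl, with a difference of −0.47 ± 0.20. OGOX1 (AT4G20830) read 7.88, 8.37 and 7.58 in TiO2, against 8.30, 8.42 and 8.01 in KCl, with a difference of −0.30 ± 0.19. Groups overlapped in both genes. With the replicate block CELLOX1 was past the threshold, which made 3 of the 10 genes called. Over the alternatives CELLOX1 ran from −0.66 to −0.24, the least negative without KCl replicate 3, and OGOX1 was at −0.52 when TiO2 replicate 2 was left out and at −0.12 when replicate 3 was. AT5G44380 read 7.23, 7.61 and 7.69 in TiO2, against 6.77, 7.07 and 7.79 in KCl, where replicate 3 was the highest array of both groups. Its difference of 0.30 ± 0.19 was the only positive one among the 5 further genes. Without KCl replicate 3 it was 0.59, past the threshold.

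Seed markers also differed between TiO2 and KCl. Both measured ones fell, M17 (AT2G41260) with a difference of −2.22 ± 0.36 log2 and PAP85 (AT3G22640) with one of −1.38 ± 0.28 (limma adjusted p = 0.000763 and 0.00420), with a summed level of 6.38 to 8.04 log2 in TiO2 and 8.61 to 9.59 in KCl. Of the 6 root markers 1 fell, AT4G26010 with a difference of −0.44 ± 0.12 (adjusted p = 0.0267), a call lost without KCl replicate 2 or without TiO2 replicate 1 or 3, and the summed level was 13.6 to 13.8 in TiO2 and 13.6 to 13.7 in KCl. Their part in the differences of AT1G30700 and AT2G34810 was not tested.

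The levels in the 4 groups can be ordered for each gene, within the limit of the separate distributions of the sets of arrays. Water was the highest group in 9 of the 10 genes, all but AT2G34810, and was apart from the next group in each of the 9, narrowly so in AT1G26400, AT4G20830 and AT5G44380. AT1G26380 averaged 3.43 ± 0.12 log2 in TiO2, 3.44 ± 0.11 in KCl, 3.83 ± 0.13 in CeO2 and 8.04 ± 0.12 in water (SD, n = 3 each). TiO2 and KCl overlapped, and CeO2 lay just above both. AT1G26410 and AT1G26420 followed the same order of sets, at 3.56 ± 0.07 and 3.35 ± 0.08 in CeO2, with all TiO2 and KCl arrays below. In AT1G26390 CeO2 and TiO2 overlapped, and in AT1G26400 CeO2, KCl and TiO2 all overlapped.

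AT4G20860 and AT5G44380 instead parted by set. AT4G20860 averaged 5.34 ± 0.35 log2 in TiO2, 5.81 ± 0.43 in KCl, 7.32 ± 0.17 in CeO2 and 8.18 ± 0.27 in water. AT5G44380 averaged 7.51 ± 0.24 in TiO2, 7.21 ± 0.53 in KCl, 9.20 ± 0.19 in CeO2 and 9.52 ± 0.09 in water. In both genes the CeO2 arrays lay above all TiO2 and KCl arrays. In AT1G30700 and AT4G20830 the CeO2 arrays overlapped those of KCl, at 6.64 ± 0.32 in CeO2 and 6.77 ± 0.25 in KCl for AT1G30700, and also those of TiO2. In AT2G34810 KCl was the highest, at 6.99 ± 0.14, and the other groups overlapped at means of 6.37 to 6.42.

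Set against water, KCl was lower in 8 of the 10 genes and higher in 1, AT2G34810, by the threshold of the fit, where 26.4% of all probe sets were called lower, 23.2% higher and 49.6% either way. Every KCl array lay below every water array in 9 genes and above in 1, against 29.9% of probe sets lower and 57.3% either way. The medians of the KCl and water arrays also differed, by −0.18 log2, while the median of the differences over all probe sets was 0.004. The part of the offset of the medians in the differences of these genes was not tested. The differences were −4.60 ± 0.10 log2 for AT1G26380, −2.37 ± 0.20 for AT4G20860 and −2.31 ± 0.19 for AT5G44380, against 0.57 ± 0.11 for AT2G34810. All 10 kept their sign after median centring and after a second quantile normalization, AT1G26400 at −0.02 after centring. This comparison shares its water arrays with that of CeO2 and its KCl arrays with that of TiO2, and liquid and set of arrays cannot be told apart in it.

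The family genes lie in blocks on the chromosomes, and differences varied between neighbours within them. In the tandem cluster RefSeq places the 5 genes next to each other with no other gene between them. In the next block of the family, AT1G30700 had a difference of −1.77 log2 in CeO2. The probe set shared by AT1G30720 and AT1G30730 averaged 5.69 in CeO2 and 7.13 in water, a difference of −1.44 ± 0.17, while AT1G30710, AT1G30740 and AT1G30760 stood at −0.03, 0.04 and 0.13. These 3 genes averaged 2.91 to 3.42 in CeO2 and 2.92 to 3.29 in water. In TiO2 the shared probe set stood at 0.09 ± 0.17, against −0.94 for AT1G30700.

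**Figure D3:**
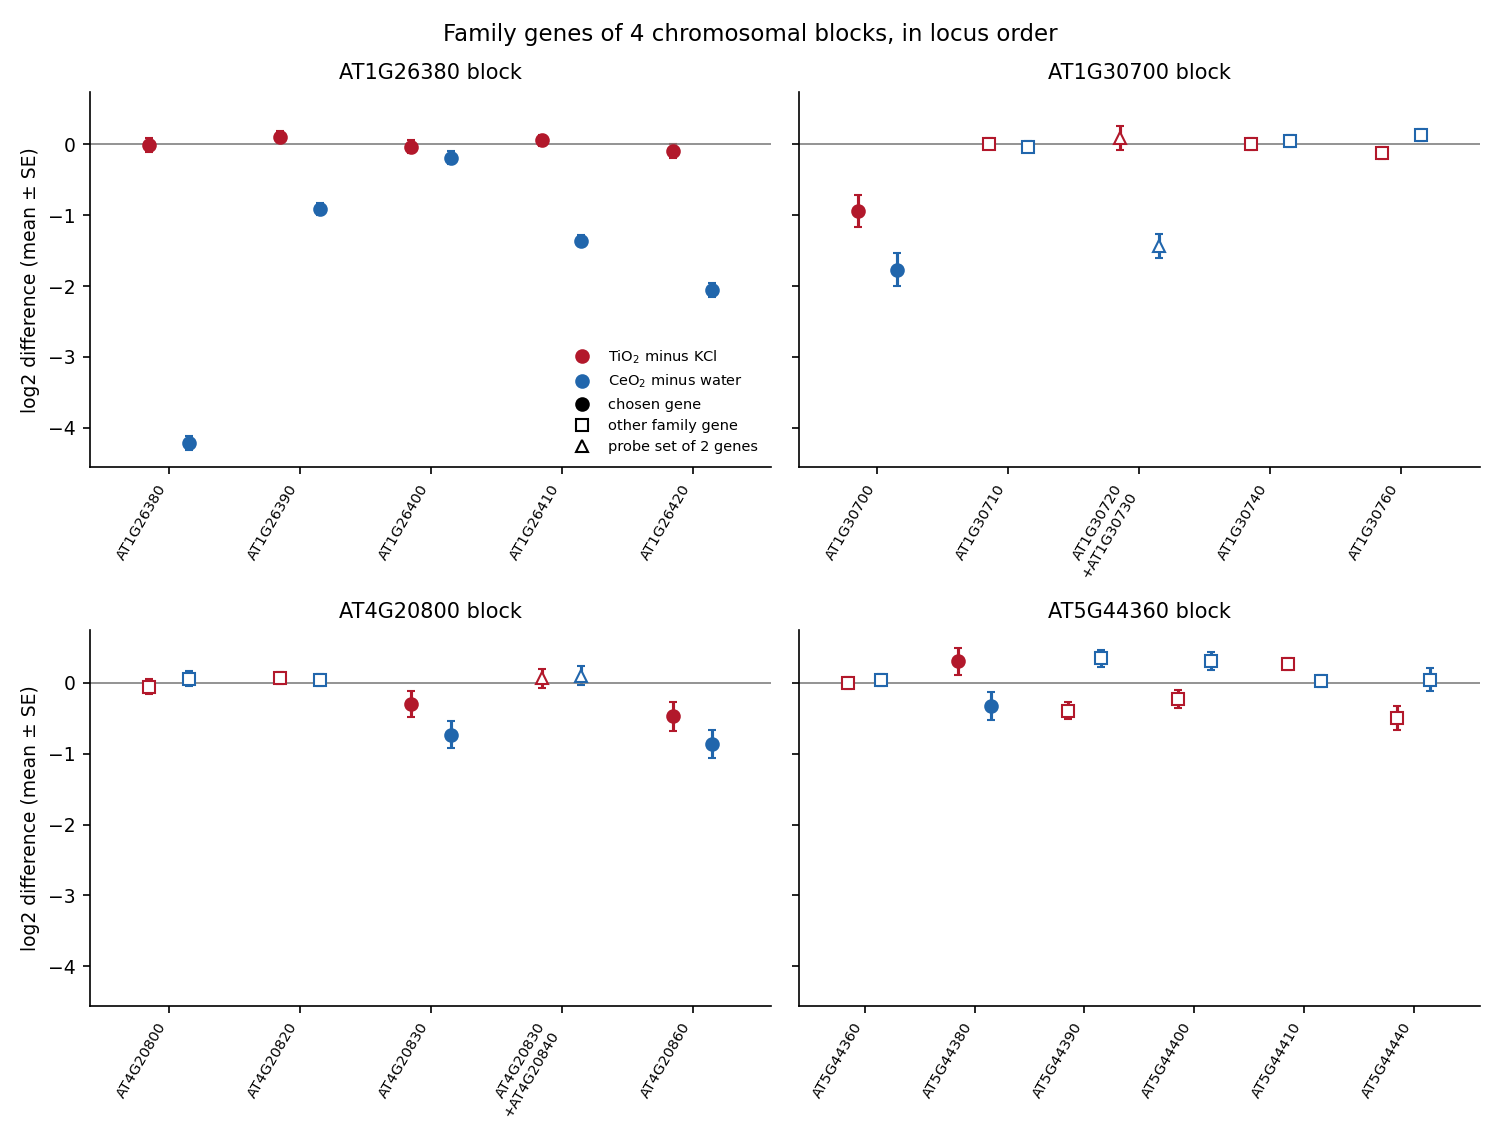
Log2 difference (error bars are the SE of the limma fit) of the family genes of 4 chromosomal blocks in locus order; red is TiO2 minus KCl, blue CeO2 minus water, filled circles the chosen genes, open squares other family genes and open triangles probe sets shared by 2 genes. AT1G30700 and the shared set of AT1G30720 and AT1G30730 stand at −1.77 and −1.44 in CeO2, beside neighbours near 0.

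On chromosome 4, AT4G20830 and AT4G20860 stood at −0.73 and −0.87 in CeO2, beside AT4G20800 and AT4G20820 at 0.06 and 0.04. The latter genes averaged only 3.46 and 3.01 log2 in water, where a lower level was hardly detectable. On chromosome 5, AT5G44380 stood at −0.33, beside AT5G44390 and AT5G44400 at 0.34 and 0.30 and AT5G44360, AT5G44410 and AT5G44440 at 0.02 to 0.04. In water AT5G44360 and AT5G44410 were also low, at 3.11 and 3.53, and AT5G44440 was at 8.07. Of the 12 other family genes none was past the threshold in either particle comparison by the 12-array limma fit, against 2.42% of all probe sets in CeO2 and 10.6% in TiO2. In TiO2 AT5G44390, at −0.39 (adjusted p = 0.0505), was past it in 5 of 18 alternatives and AT5G44440, at −0.50 (adjusted p = 0.0663), in 4 of 18, the replicate block among them for both. Their differences ran from −0.03 to 0.34 log2 in CeO2, with a median of 0.04, and from −0.50 to 0.27 in TiO2, with a median of 0.00. Only 2 of the 12, against 6 of the 10, were bright enough on average to lie outside the dimmest 30% of probe sets. No test was made between the 10 and the 12, since the 10 were not chosen blind to these values.

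The limma fit also tested whether the differences in CeO2 and in TiO2 differed from each other. Of the 10 genes 4 had a more negative difference in CeO2 and 1 a less negative one past the threshold, against 3.42% and 4.64% of all probe sets and 8.06% either way, a count again fixed by the choice of the genes. Of the 12 others 1 was past it, with a more positive difference in CeO2. This was AT5G44390, which differed by 0.74 ± 0.17 (adjusted p = 0.0132), with 0.34 in CeO2 and −0.39 in TiO2. It read 5.08, 5.01 and 4.82 log2 in CeO2, against 4.69, 4.66 and 4.53 in water, and 3.74, 3.87 and 3.91 in TiO2, against 4.00, 4.16 and 4.55 in KCl. Groups were apart in both comparisons, in opposite directions, and the particles, liquids and sets of arrays cannot be told apart in this difference.

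Genes that flank the tandem cluster were measured too, a set added with the cluster's values known. Of the 6 protein-coding genes on each side in RefSeq, 5 in all had a probe set of their own. In CeO2 none of the 5 was past the threshold, with differences of −0.07 to 0.15 log2 (limma adjusted p of 0.833 to 0.983). In TiO2 the neighbour AT1G26450 fell by 0.62 ± 0.13 (adjusted p = 0.00396), to 4.51 log2 against 5.13 in KCl, and the other 4 stood at 0.02 to 0.33.

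A gene of the related pathway lists was taken as measured only where the annotation pairs a probe set with it alone. Few genes met this, which does not tell whether the array reads the others. Neither of the lists of indole-derived defence compounds, with 12 genes, and of wounding and jasmonate, with 10, had a gene with its own named probe set. Of 11 genes for perception of wall fragments and the oxidative burst 3 were measured. WRKY53 (AT4G23810), a regulator of senescence and defence, fell by 0.74 ± 0.10 log2 in CeO2 (limma adjusted p = 0.000241), to 3.50 ± 0.11 against 4.24 ± 0.12 in water. The receptor kinase gene FER (AT3G51550) stood at 0.05 in CeO2 and AT1G56145, the receptor of cellulose fragments CORK1, at −0.19. The list median was −0.19 in CeO2, against −0.01 over all probe sets. In TiO2 none of the 3 was past the threshold, with a list median of 0.12, FER at 0.10 and CORK1 at 0.12 (adjusted p = 0.533 and 0.560). WRKY53 stood at 0.32 there (adjusted p = 0.0548), and was past the threshold after median centring and under a robust prior with an intensity trend.

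Of 10 genes for monolignols and their glucosides 5 were measured. In TiO2 UGT72E1 (AT3G50740) and UGT72E2 (AT5G66690), which attach glucose to monolignols and related phenolics, fell, with differences of −1.09 ± 0.11 and −0.46 ± 0.12 log2 (limma adjusted p = 1.51e-05 and 0.0219), and BGLU46 (AT1G61820), a monolignol beta-glucosidase, rose by 0.63 ± 0.15 (adjusted p = 0.0112). The calls of UGT72E2 and BGLU46 were lost in a fit of the 6 compared arrays alone. That of UGT72E2 was also lost without KCl replicate 2 or 3 or TiO2 replicate 2, and that of BGLU46 without KCl replicate 1 or TiO2 replicate 3. In CeO2 UGT72E3 (AT5G26310) rose by 0.48 ± 0.11 (adjusted p = 0.0261), a call lost without water replicate 1 or 3 or CeO2 replicate 1 or 3. BGLU46 stood at −0.51 ± 0.15 there (adjusted p = 0.106), with 3.79 to 4.09 log2 in CeO2 and 4.34 to 4.52 in water, so the groups were apart. It was past the threshold, and lower, in a fit of the 6 compared arrays alone, with the replicate block and without KCl replicate 3. Its difference in CeO2 minus that in TiO2 was −1.13 ± 0.21 (adjusted p = 0.00234). The list medians were −0.20 in TiO2 and 0.11 in CeO2, against 0.02 and −0.01 over all probe sets.

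The genes most like AT1G26380 were sought by the root mean square difference between centred log2 profiles over the 12 arrays, among all 13332 other genes with a probe set of their own. The nearest was AT3G16530, a gene of a lectin-like protein, at 0.403 log2. It read 5.81, 5.46 and 5.70 log2 in CeO2, against 9.71, 9.73 and 9.57 in water, and 5.85 to 5.94 in TiO2, against 5.71 to 6.08 in KCl. Like AT1G26380 it was high in the water arrays and lower in the other 9. The genes nearest in profile were chosen by these same values, so the shared pattern is a description.

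**Figure D4:**
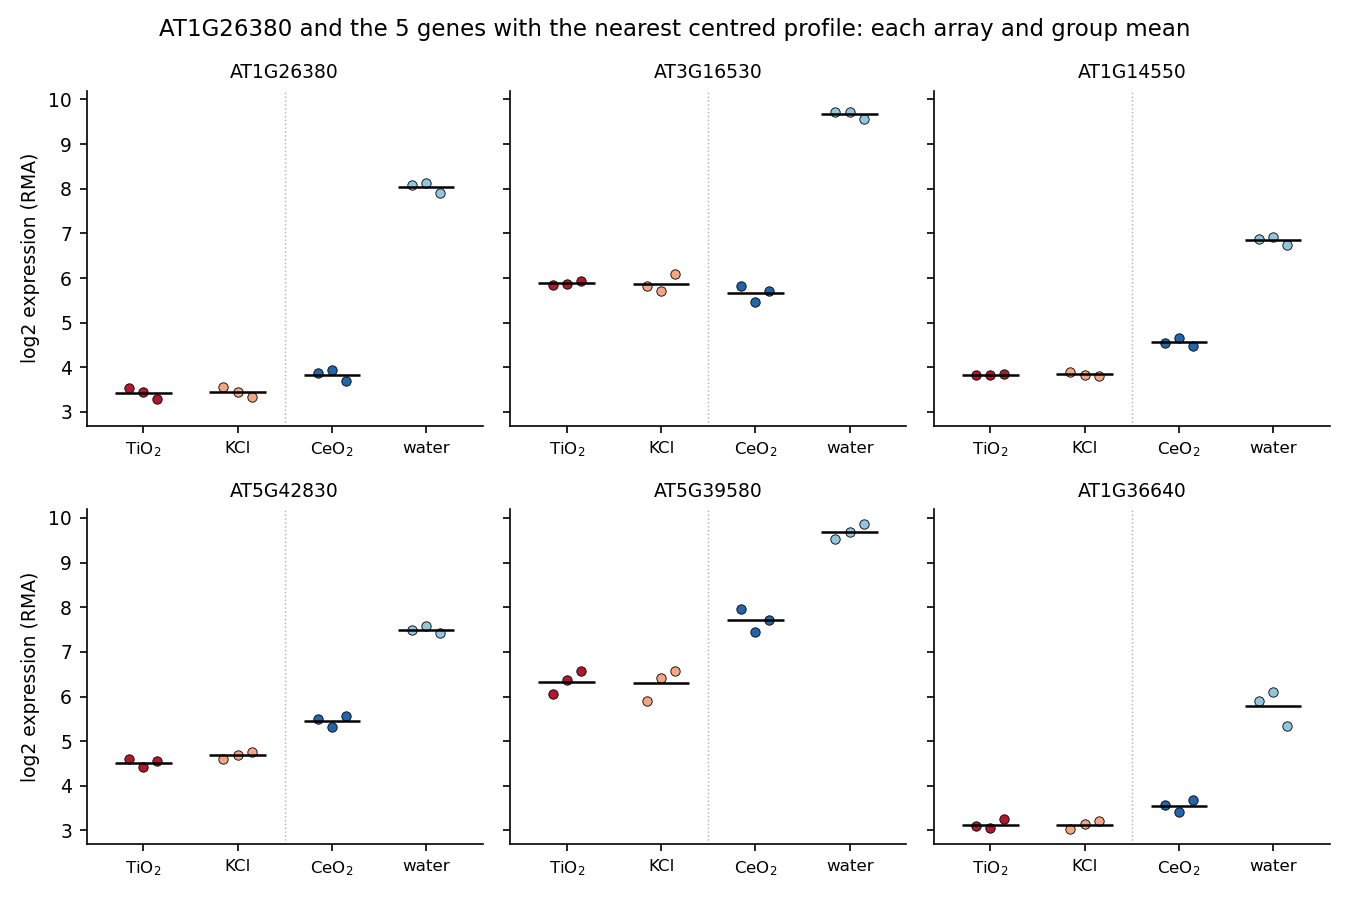
Log2 expression (RMA) of AT1G26380 and of the 5 genes with the nearest centred profile, with 1 point per array and a bar at the mean of the 3 arrays of a group. In all 6 panels the water arrays are the highest, which follows from the choice by profile, and AT3G16530 has means of 5.66 in CeO2 and 9.67 in water.

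Next were the peroxidase gene AT1G14550 at 0.755, the acyltransferase family gene AT5G42830 at 0.844, the peroxidase gene AT5G39580 at 0.845 and AT1G36640 at 0.873. AT1G14550 averaged 4.56 log2 in CeO2 and 6.85 in water, and 3.84 in TiO2 and 3.85 in KCl. Among the oxidase genes AT1G26420 was nearest, at rank 7 with 0.943, followed by AT1G30700 at rank 15, AT1G26410 at rank 16 and AT4G20860 at rank 19. AT1G26400 at rank 3084 and AT2G34810 at rank 10371 were the farthest. Profiles were not scaled to the size of a gene's differences. AT1G26400, low in every array, had the same order of group means as AT1G26380, while in AT2G34810 KCl was the highest. Over only the 6 CeO2 and water arrays AT3G16530 was again the nearest, at 0.185, and AT1G26420 was at rank 5 with 1.08.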

How the data were processed

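Each sample is 1 Affymetrix array, deposited as log2 values by probe set that the authors made with RMA, per the submitters' processing notes; its version, the probe definitions and whether the arrays were normalized together are not given in the sources used here. All 22746 probe sets entered the fits, with no missing value. Genes came from the annotation of the series and a RefSeq table (TAIR10.1); 13513 probe sets had 1 gene, 503 several and 8730 none.

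Under R 4.3.3, limma 3.58.1 fitted a mean for each group to the 12 arrays, residual degrees of freedom 8 plus 7.63 from the prior. Tests were two-sided with Benjamini-Hochberg adjustment over all probe sets and a threshold of 0.05; every adjusted p given is limma's. Precision is limited by 3 arrays per group. The fit was tested on simulated data. The members and lists were chosen with earlier results of these data known. Named were all 10 genes, up to 4 members past the threshold of each related list (otherwise its 2 brightest) and the 5 genes most like AT1G26380; other list members, marker genes, flanking genes and other family genes named were chosen after their values were seen. Alternatives were another normalization, median centring, leaving out the dimmest 30% of probe sets, fewer arrays, another variance model and a replicate block.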

Additional observations from a re-analysis of the deposited data

Results flagged for a closer look

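The effects of both particles on their own controls differed by the limma test of that difference (CeO2 minus TiO2) in 5 of the 10 genes, against 8.06% of all probe sets. These are descriptions, since the genes were chosen with both effects known, and particle, liquid and set of arrays cannot be told apart. AT1G26380 differed by −4.20 ± 0.14 log2, AT1G26420 by −1.96 ± 0.13, AT1G26410 by −1.41 ± 0.11 and AT1G26390 by −1.02 ± 0.12. In these 4 cluster genes the CeO2 effect was negative and the TiO2 effect between −0.09 and 0.11, at KCl levels of 2.99 to 3.44 log2 near the bottom of the scale. AT2G34810 differed by 0.55 ± 0.15, with −0.05 in CeO2 and −0.60 in TiO2, and was not past the threshold in 9 of 17 alternatives: with the replicate block and without replicate 1 or 3 of any of the 4 groups.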

How the results depend on the processing

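No called difference of the 10 genes changed sign under any alternative that was run. In a fit of the 6 compared arrays alone, calls in TiO2 against KCl fell to 1432 from 2407 over all probe sets, to 1 from 2 among the 10 genes and to 1 from 3 in the monolignol list; in CeO2 the monolignol list had 2 calls in place of 1, with BGLU46 lower, as it had with the replicate block. The wall fragment list had 1 call in TiO2 in place of 0 after median centring and under a robust prior with an intensity trend, and 0 in CeO2 in place of 1 without dim probe sets, where WRKY53 was not tested. That filter kept 6 of the 10 genes and 1 of the 5 cluster genes, so it gave no spread of the cluster. Leaving out 1 array at a time, calls ranged from 1782 to 2551 in TiO2 and from 382 to 640 in CeO2 over all probe sets, from 1 to 3 in TiO2 and from 5 to 7 in CeO2 among the 10 genes, and from 0 to 2 in CeO2 and from 2 to 3 in TiO2 in the monolignol list, while the cluster spread was 3.92 to 4.08 log2 in CeO2 and 0.13 to 0.24 in TiO2. Same-numbered arrays correlated in their deviations from the group means at 0.0464 to 0.274 for TiO2 and KCl and at 0.00223 to 0.302 for CeO2 and water. Arrays of different numbers correlated at −0.288 to 0.221 and at −0.229 to 0.170. In these comparisons 3 of 6 and 2 of 6 arrays correlated best with their own number. The numbers were not taken as pairs in the main fit, and these values do not settle whether they mark pairs. With the replicate block 2886 and 647 probe sets were called in TiO2 and CeO2, with 3 and 7 of the 10 genes. The lists of indole defence and of jasmonate had no gene with its own named probe set, and so no value under any setting. Low signals limit the cluster genes in TiO2, KCl and CeO2, where their group means were 2.91 to 3.83 log2.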
